A study of Mus musculus with 22 samples.

Results

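Fezf2, a zinc-finger transcription factor, was followed together with 7 genes that have been reported as its targets in the medullary epithelial cells (MECs) of the thymus of mice: Apob, Calb1, Fabp9, Apoc3, Ttr, Resp18 and Nol4. The members were the array probes for which the platform annotation gives 1 of these symbols and no other. The rule found 10 probes for 8 genes, of 24922 probes and 19752 genes measured. Nol4 had 3 probes and each other gene had 1. By label no group carried a Fezf2 deletion, so what depends on Fezf2 was not measured here. The comparisons ask how Fezf2 and the reported targets differ when the other regulator of tissue antigens, Aire, is missing, and when mice receive the compounds labelled Etopo and Topo.

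MECs show developing T cells a sample of the body's own proteins, so that cells reactive to them can be removed or turned into regulatory cells. Aire and Fezf2 each switch on genes that are otherwise restricted to peripheral tissues, and the sets of genes that depend on them have been described as largely separate. Fezf2 is also known as the factor that specifies subcerebral projection neurons of the cerebral cortex. The reported targets come from several tissues. Apob is the structural protein of chylomicrons and low-density lipoproteins, and Apoc3 is a lipoprotein-bound inhibitor of lipoprotein lipase. Ttr carries thyroxine and, with Rbp4, retinol. Fabp9 is a fatty acid binding protein of the testis, Calb1 is the calcium buffer calbindin, Resp18 is a protein of neuroendocrine secretory granules, and Nol4 is a nucleolar protein.

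The study hybridised RNA of sorted MECs to 22 Affymetrix gene arrays from C57Bl/6 mice of 2 genotypes, Aire-/- (KO) and Aire+/+ (WT). The KO groups were KO Etopo (2 arrays), KO Topo (3), KO EtopoTopo (2) and KO DMSO (3), and the WT groups were WT Etopo, WT Topo, WT EtopoTopo and WT DMSO with 3 arrays each. Etopo and Topo are compounds that the labels do not spell out, EtopoTopo is the pair given together, and DMSO, a solvent, is the control. Doses, times of treatment, the kind of Aire allele and any pooling of mice are not given in the sources used here, and p-values therefore measure the spread between arrays. By label 15 arrays were from mice of 6 weeks and 7 from mice of 4 weeks. The 4-week arrays were all KO EtopoTopo and WT EtopoTopo arrays, WT Etopo 3 and WT DMSO 3. Age and treatment therefore cannot be told apart in KO EtopoTopo against KO DMSO, since every KO DMSO mouse was 6 weeks old. In WT, 1 DMSO array is of the same age as the EtopoTopo arrays.

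Some labels and arrays stood apart. The titles of WT EtopoTopo 1 and 2 name both compounds, while their treatment label names Etopo alone. They were kept under their titles, and results that rest on them are given without them too. A male label stood on 3 arrays, while on all 22 arrays Xist lay at 11.38 to 12.56 on the log2 scale and 3 Y-linked genes at 3.71 to 6.07. The mean of 12 thymocyte transcripts was 8.68 on KO DMSO 1 and 8.23 on WT DMSO 1, and at most 7.52 on the other 20 arrays. The Aire probe was not lower in KO, with 11.43 to 12.96 in KO against 11.27 to 12.44 in WT, so it does not check the deletion. Of 14 Aire-dependent antigens 13 were lower in KO DMSO than in WT DMSO (median log2 change -3.45), with list means of 7.25 to 7.34 on KO DMSO arrays and 10.51 to 10.74 on WT DMSO arrays. That list was chosen with earlier results of these data known, so it is no independent check of the genotype. The 15 mature MEC markers, Fezf2 among them, had a mean of 11.14 to 11.81 on every array. KO EtopoTopo 1 had the narrowest spread of signal, 3.89 log2 units between its 10th and 90th percentile, where the widest array had 5.01. Next came WT EtopoTopo 2 and 3 (4.32 and 4.33) and KO Topo 1 (4.42), which also had the lowest median intensity, 236.1. WT EtopoTopo 1 and KO EtopoTopo 2 had 4.66 and 4.68, and the DMSO arrays 4.56 to 5.01.

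RefSeq promoter windows are shown for 3 of the 8 genes. Each holds the 250 bases before the start that the RefSeq promoter table gives (build GRCm38.p6). No entry was found there for Fabp9, Calb1 and Apoc3. The remaining members were left out of this step, so the absence of a window for them does not mean that none exists. The extent of a gene over all its RefSeq transcripts can begin earlier: the Fezf2 start lies 938 bases inside that extent, so its whole window does too, 48 bases of the Apob window lie inside, and none of the Resp18 window does. Fezf2, the regulator, lies at chr14:12345866-12346115 on the minus strand. Apob, the member with the largest difference between genotypes under DMSO, lies at chr12:7977427-7977676 on the plus strand. Resp18, which is described below with the age of the mice, lies at chr1:75278416-75278665 on the minus strand. Each is read 5′ to 3′ along its gene, and capitals mark a TATA box (TATAAA) or a CCAAT box (CCAAT, or ATTGG where it sits on the other strand).

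Fezf2: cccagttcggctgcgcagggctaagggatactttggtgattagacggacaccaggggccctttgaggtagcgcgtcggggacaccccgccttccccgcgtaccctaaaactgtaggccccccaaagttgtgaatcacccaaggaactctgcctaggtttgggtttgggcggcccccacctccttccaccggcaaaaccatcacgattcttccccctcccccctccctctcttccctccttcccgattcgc

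Apob: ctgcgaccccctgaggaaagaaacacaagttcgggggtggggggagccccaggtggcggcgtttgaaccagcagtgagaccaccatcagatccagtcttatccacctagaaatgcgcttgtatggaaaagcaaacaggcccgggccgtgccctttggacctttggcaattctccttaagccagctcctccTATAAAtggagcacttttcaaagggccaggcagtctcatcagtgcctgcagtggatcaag

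Resp18: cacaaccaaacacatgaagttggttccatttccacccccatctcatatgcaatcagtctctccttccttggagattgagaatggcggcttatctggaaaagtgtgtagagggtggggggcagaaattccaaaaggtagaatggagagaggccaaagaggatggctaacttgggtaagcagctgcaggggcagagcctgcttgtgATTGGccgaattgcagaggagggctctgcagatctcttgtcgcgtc

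The Apob window held TATAAA 60 bases before its start, a sequence found on either strand in 12.4% of 32851 windows of this length. The Resp18 window held CCAAT on the opposite strand 46 bases before its start, and 33.8% of windows held that sequence. Neither was in the Fezf2 window, whose GC content was 61.2%, against 55.2% for Apob, 51.2% for Resp18 and a median of 52.4% over the windows. These matches describe letters and not sites of binding.

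All values below are log2 intensities of 1 probe per gene, and changes are differences of log2 values from a linear model over all genes and arrays (limma), with the standard error (SE) of that model. The threshold for a call was an adjusted p below 0.05. Levels of different genes are not set against each other, because probes differ in brightness.

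**Figure D1:**
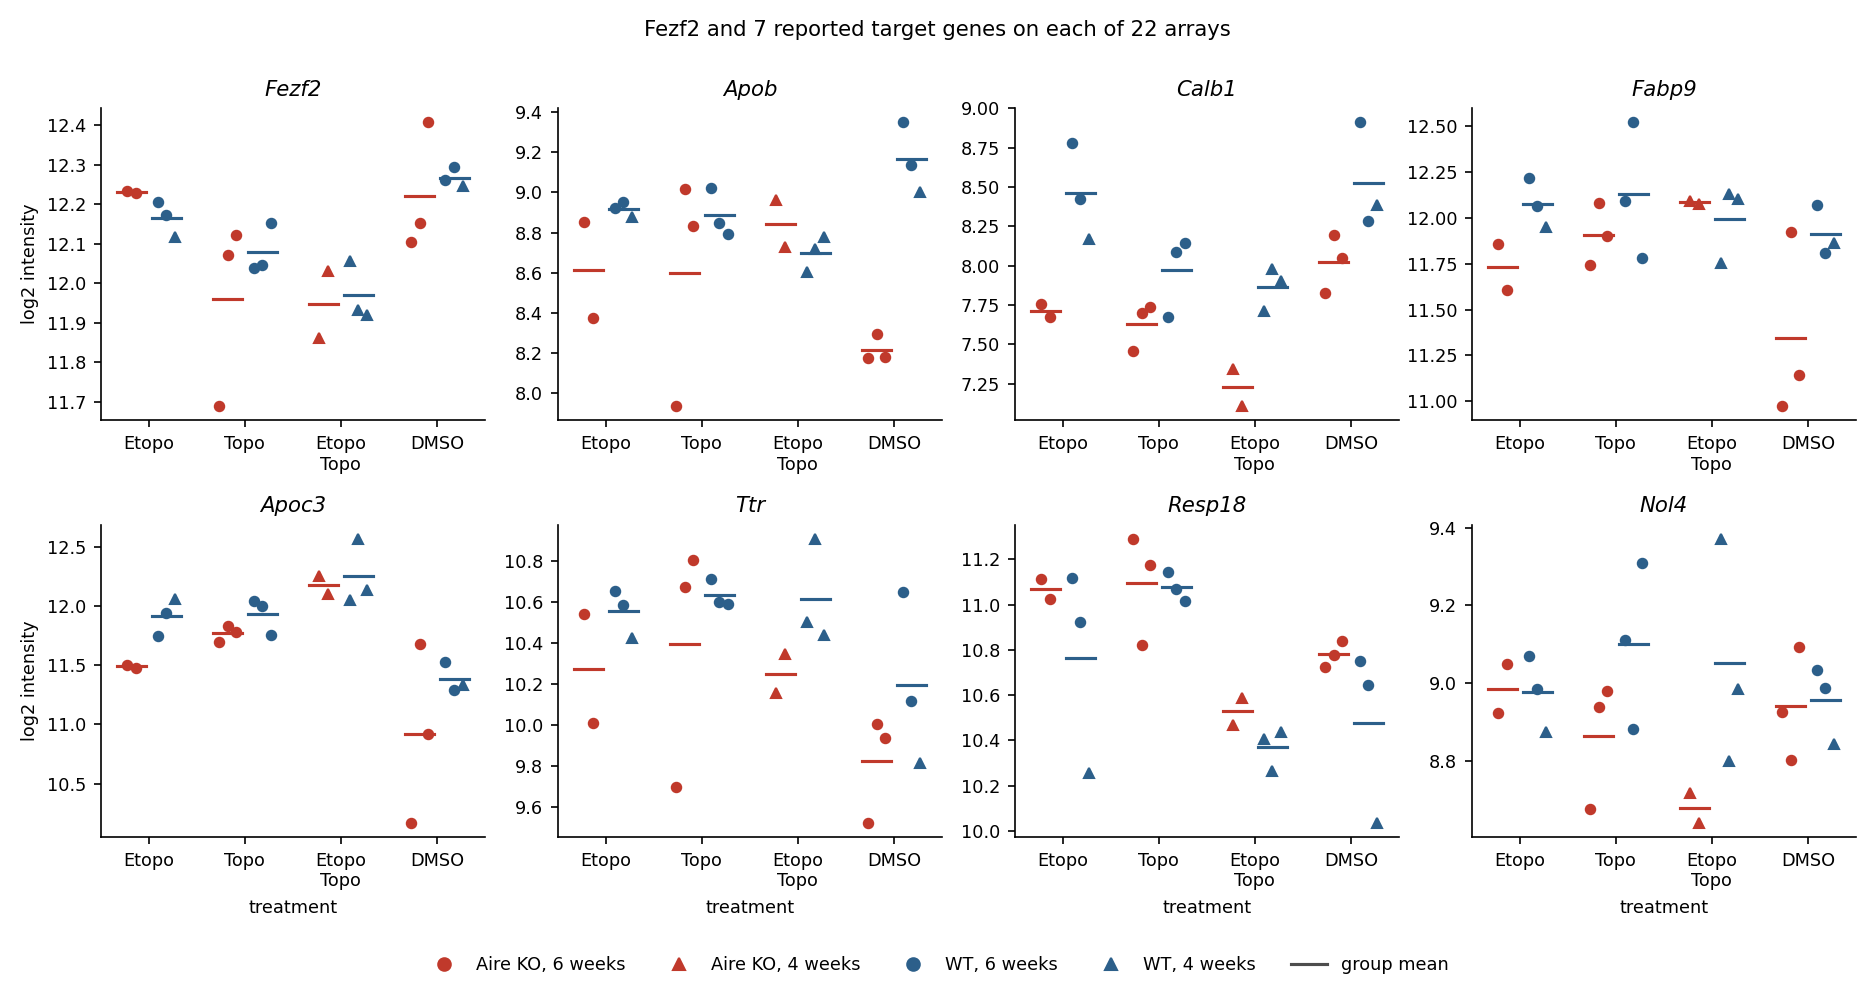
Log2 intensity (vertical axes, each panel with its own range) of Fezf2 and 7 reported targets on each of 22 arrays by treatment, with Aire KO left of WT in each pair. Circles are 6-week mice, triangles 4-week mice, and bars group means of 2 or 3 arrays. Apob in KO DMSO lies at 8.17 to 8.29, below all other groups except 1 KO Topo array, and Resp18 is at most 10.59 on every triangle.

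Fezf2 itself was called in no single comparison of 2 groups. It averaged 12.23 ± 0.0042 in KO Etopo, 11.96 ± 0.24 in KO Topo, 11.95 ± 0.12 in KO EtopoTopo and 12.22 ± 0.16 in KO DMSO (SD, n = 2, 3, 2 and 3). In WT it averaged 12.17 ± 0.044 with Etopo, 12.08 ± 0.064 with Topo, 11.97 ± 0.075 with EtopoTopo and 12.27 ± 0.025 with DMSO (SD, n = 3 each). From high to low the groups ran WT DMSO, KO Etopo, KO DMSO, WT Etopo, WT Topo, WT EtopoTopo, KO Topo and KO EtopoTopo, and the whole span of the means was 0.32. The arrays of each neighbouring pair in that order overlapped, except those of WT DMSO and KO Etopo, which lay next to each other.

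Fezf2 was not called between genotypes under any treatment. With DMSO the KO arrays had 12.10, 12.15 and 12.41, and the WT arrays 12.26, 12.29 and 12.24. The KO values lay on either side of the WT values, and the change was -0.05 ± 0.12 (SE, adjusted p = 0.859). Averaged over the 4 treatments, a comparison added after the data were seen, KO minus WT was -0.03 with a 95% interval of -0.16 to 0.10.

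With EtopoTopo the Fezf2 arrays lay below those of DMSO in both genotypes, short of the threshold within each. EtopoTopo arrays had 11.86 and 12.03 in KO and 12.06, 11.93 and 11.92 in WT, all below every DMSO array of their genotype. By percentile on its array, Fezf2 overlapped in KO, at 99.15 and 99 with EtopoTopo and 99.13, 99.09 and 99.35 with DMSO. In WT it did not, at 99.15, 99.15 and 99.07 against 99.32, 99.39 and 99.35. The log2 changes of -0.27 ± 0.13 in KO (adjusted p = 0.118) and -0.30 ± 0.12 in WT (adjusted p = 0.107) missed the threshold. In KO each of the 8 members lay apart from DMSO, 4 above and 4 below, so among them the gap is not particular to Fezf2. The share of all genes with such a gap is not given here. Averaged over genotypes, also a comparison added after the data were seen, Fezf2 fell by 0.29 (SE 0.09, adjusted p = 0.0184), a factor of 1.22, where 32% of all genes were called. That call was lost with age as a covariate (-0.24, adjusted p = 0.366), with quantile normalization (-0.14, adjusted p = 0.115), without WT EtopoTopo 1 and 2 (-0.31, adjusted p = 0.0501), without KO EtopoTopo 1 (-0.24, adjusted p = 0.0983) and without KO DMSO 3 (-0.24, adjusted p = 0.0542). With Topo alone the averaged change was -0.22 ± 0.08 (adjusted p = 0.139), and KO Topo 1 stood at 11.69, below the 12.07 and 12.12 of the other KO Topo arrays.

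Under DMSO, 2 of the 8 genes were lower in KO than in WT, Apob and Calb1, and none was higher. Over all genes, 19.4% were called in this comparison, 12% of all genes as lower. The 8 genes had a median change of -0.42, against -0.01 over all genes. A lower level in these samples of many cells can come from fewer cells that make the RNA or from less RNA per cell, and the arrays cannot tell these apart.

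**Figure D2:**
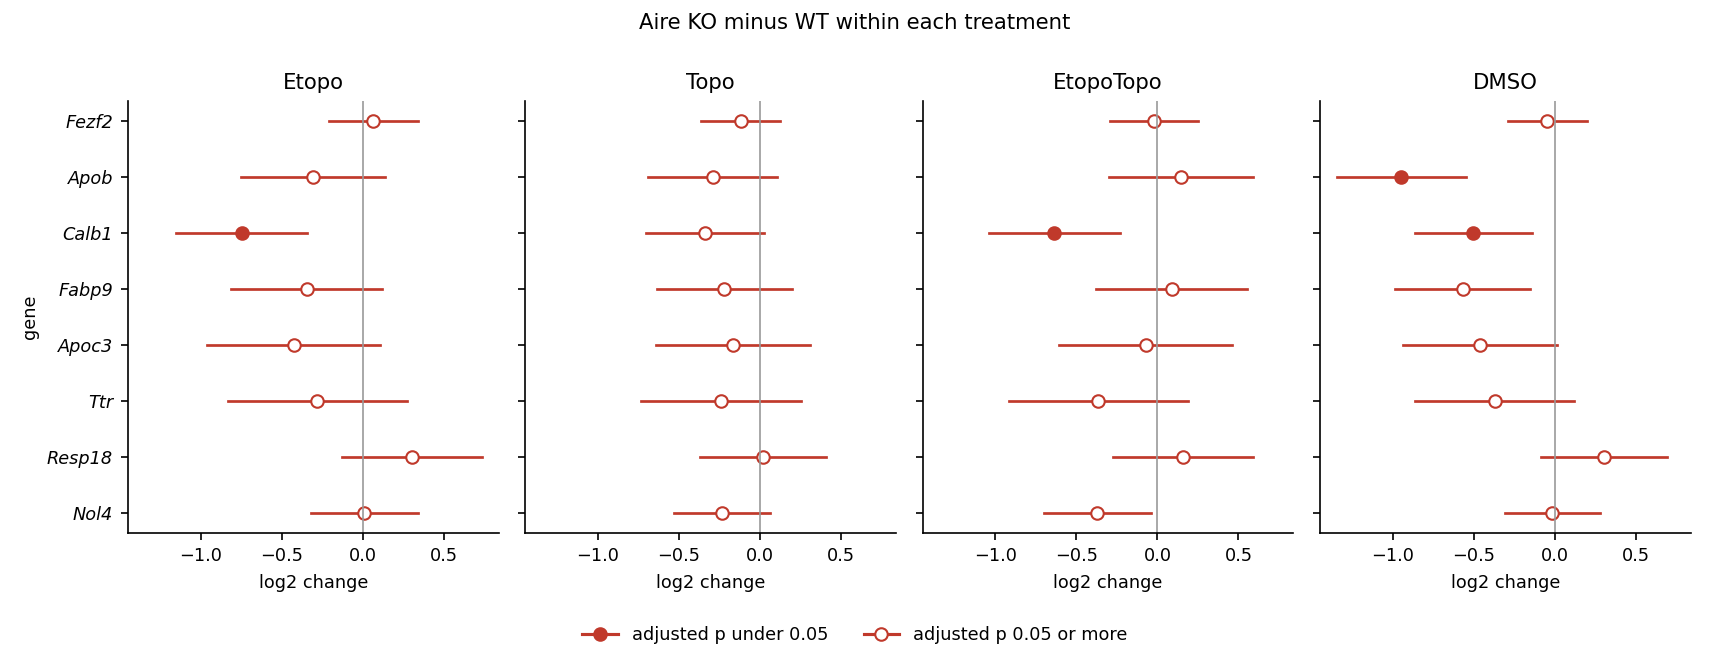
Change in log2 intensity, Aire KO minus WT (horizontal axis), of each gene within each treatment, with 95% intervals from the model and filled points at an adjusted p under 0.05. The filled points are Apob and Calb1 under DMSO (-0.95 and -0.50) and Calb1 under Etopo (-0.74) and EtopoTopo (-0.64), all lower in KO.

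Apob, the lipoprotein scaffold, had the largest difference between genotypes under DMSO among the members. Its values were 8.17, 8.29 and 8.18 in KO DMSO, against 9.35, 9.14 and 9.00 in WT DMSO. The arrays of the 2 genotypes did not overlap. The change was -0.95 ± 0.19 (SE, adjusted p = 0.000986), 1.93-fold lower in KO. The call held in 17 of 17 alternatives, with changes of -1.03 to -0.83, including -0.83 without the 2 arrays rich in thymocyte transcripts (adjusted p = 0.0224).

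The same gene did not pass the threshold between genotypes when a drug was given. Apob was 8.85 and 8.37 in KO Etopo, against 8.92, 8.95 and 8.88 in WT Etopo (change -0.30 ± 0.21, adjusted p = 0.46, and -0.54 to -0.07 with 1 array left out). It was 7.94, 9.02 and 8.83 in KO Topo, against 9.02, 8.85 and 8.79 in WT Topo (-0.29 ± 0.19, adjusted p = 0.36, and -0.50 to 0.04 with 1 array left out, the highest without KO Topo 1). With EtopoTopo it was 8.96 and 8.73 in KO, against 8.60, 8.72 and 8.78 in WT (0.14 ± 0.21, adjusted p = 0.733). Both KO Etopo arrays lay below the WT Etopo arrays, the KO Topo arrays were far apart, with KO Topo 1 at 7.94, and the EtopoTopo arrays of the genotypes overlapped.

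Calb1, the calcium buffer, was lower in KO under 3 of 4 treatments. With DMSO it was 7.83, 8.19 and 8.05 in KO, against 8.91, 8.29 and 8.38 in WT. Every KO array lay below every WT array, which held for 18.2% of all genes, and the change was -0.50 ± 0.17 (SE, adjusted p = 0.046). WT DMSO 1 was the highest array, and without it the change was -0.31 (adjusted p = 0.218). Without both DMSO 1 arrays it was -0.21 (adjusted p = 0.484). The call was lost in 10 of 17 alternatives, among them those without KO DMSO 1 (-0.41), KO DMSO 3 (-0.52) or WT DMSO 3 (-0.58), with adjusted p from 0.0183 to 0.484 over all 17.

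With Etopo, Calb1 was 7.75 and 7.67 in KO, against 8.78, 8.43 and 8.17 in WT. The arrays did not overlap, and the change was -0.74 ± 0.19 (SE, adjusted p = 0.0122), 1.68-fold lower in KO, where 12.6% of all genes were called. It was the only one of the 8 called there, and its call was lost without WT Etopo 1 or either KO Etopo array, at -0.58, -0.78 and -0.70. With EtopoTopo it was 7.34 and 7.11 in KO, against 7.71, 7.98 and 7.90 in WT (-0.64 ± 0.19, adjusted p = 0.0382, 1.56-fold lower), where 10.4% of all genes and no other member were called. Without WT EtopoTopo 1 and 2, which leaves 1 WT EtopoTopo array assumed to vary like the other groups, this change was -0.68, with an adjusted p of 0.234, and the call was also lost without KO EtopoTopo 1 (-0.76), KO EtopoTopo 2 (-0.52), WT EtopoTopo 2 (-0.58) or WT EtopoTopo 3 (-0.62). With Topo, where none of the 8 and 15% of all genes were called, Calb1 was 7.46, 7.70 and 7.74 in KO, against 7.67, 8.09 and 8.15 in WT (-0.34 ± 0.17, adjusted p = 0.222).

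Averaged over the 4 treatments, Calb1 fell by 0.56 in KO (SE 0.09, adjusted p = 4.71e-05) and Apob fell by 0.35 (SE 0.10, adjusted p = 0.00903). Of all genes 35.9% were called in this average, 19.8% as lower. Both calls held in 32 of 32 alternatives, at -0.61 to -0.48 for Calb1 and -0.41 to -0.27 for Apob.

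Fabp9 was just short of the threshold under DMSO. It was 10.97, 11.92 and 11.14 in KO, against 12.07, 11.81 and 11.86 in WT. KO DMSO 2 lay among the WT arrays and the other KO arrays lay below them, and the change was -0.57 ± 0.20 (SE, adjusted p = 0.0505). Without KO DMSO 2 it was -0.86 (adjusted p = 0.00198), and without both DMSO 1 arrays -0.30 (adjusted p = 0.416). It was also called with quantile normalization (-0.69, adjusted p = 0.0183), among genes above the 25th percentile of mean signal (adjusted p = 0.0465) and with the replicate block (adjusted p = 0.0437). Apoc3 had the same array apart. It was 10.17, 11.68 and 10.92 in KO, against 11.53, 11.29 and 11.33 in WT (-0.46 ± 0.23, adjusted p = 0.183). That change was -0.84 without KO DMSO 2 (adjusted p = 0.00284) and -0.01 without both DMSO 1 arrays (adjusted p = 0.974), so that 1 or 2 arrays set its value.

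Ttr, the carrier of thyroxine, was 9.52, 10.01 and 9.94 in KO DMSO, against 10.65, 10.12 and 9.82 in WT DMSO. The arrays overlapped (-0.37 ± 0.24, SE, adjusted p = 0.326), and over the 4 treatments the change of -0.31 ± 0.13 had an adjusted p of 0.056. Resp18 was 10.72, 10.78 and 10.84 in KO DMSO, against 10.75, 10.64 and 10.04 in WT DMSO (0.30 ± 0.19, adjusted p = 0.301). The WT value rests on the 4-week array WT DMSO 3, and with 6-week arrays alone the change was 0.08 ± 0.14. Nol4 was 8.93, 8.80 and 9.09 in KO DMSO, against 9.03, 8.99 and 8.84 in WT DMSO (-0.02 ± 0.14, adjusted p = 0.965).

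Each drug was then set against DMSO within each genotype. With single drugs none of the 8 genes passed the threshold in either genotype, and with the 2 drugs together 4 of them passed in KO and 2 in WT. Comparisons of the same genotype share their DMSO arrays. Beside these results stand the thymocyte transcripts, whose list mean was 7.11 to 7.39 in KO EtopoTopo against 7.19 to 8.68 in KO DMSO, and 6.83 to 7.05 in WT EtopoTopo against 7.35 to 8.23 in WT DMSO.

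**Figure D3:**
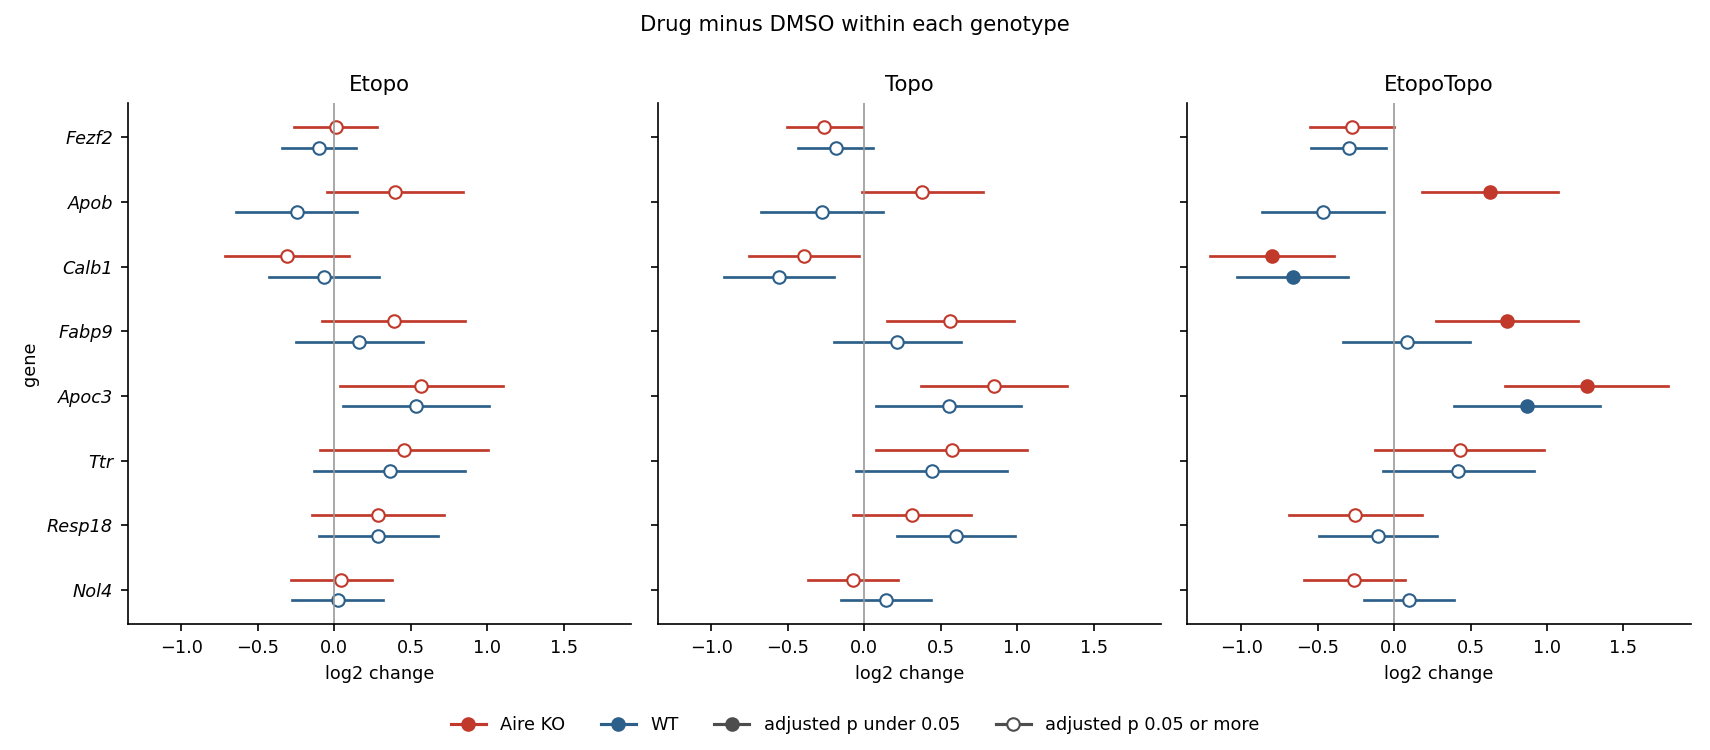
Change in log2 intensity, drug minus DMSO (horizontal axis), of each gene in Aire KO (upper, red) and WT (lower, blue), with 95% intervals from the model and filled points at an adjusted p under 0.05. Filled points occur only under EtopoTopo, for Apoc3 and Calb1 in both genotypes and for Apob and Fabp9 in KO, and the intervals of Apob in KO and WT do not overlap there.

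With Etopo, 0 of the 8 genes were called in KO, where 0% of all genes were, and 0 in WT, where 0.00506% were. At an unadjusted p under 0.05, 1 member passed in each genotype, Apoc3. Its changes were 0.57 ± 0.26 in KO (SE, adjusted p = 0.999), with 0.19 to 0.95 when 1 array was left out, and 0.53 ± 0.23 in WT (adjusted p = 0.832). It was 11.50 and 11.48 in KO Etopo, and 11.75, 11.94 and 12.06 in WT Etopo. All WT Etopo arrays lay above the WT DMSO arrays, whereas KO DMSO 2 lay above both KO Etopo arrays.

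With Topo, 0 of the 8 were called in KO, where 1.03% of all genes were, and 0 in WT, where 2.21% were. At an unadjusted p under 0.05, 5 members passed in KO and 3 in WT. Apoc3 was 11.69, 11.83 and 11.78 in KO Topo (change 0.85 ± 0.23, SE, adjusted p = 0.0824) and 12.05, 12.00 and 11.76 in WT Topo (0.55 ± 0.23, adjusted p = 0.307). Every Topo array lay above every DMSO array of its genotype. Without KO DMSO 2 the KO change was 1.23 (adjusted p = 0.00428), and without KO DMSO 1 it was 0.47 (adjusted p = 0.295).

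Averaged over genotypes, Topo was followed by 3 calls among the 8 genes, where 4.92% of all genes were called. Apoc3 rose by 0.70 ± 0.16 (SE, adjusted p = 0.0135), 1.62-fold, and held in 22 of 22 alternatives at 0.51 to 0.89. Calb1 fell by 0.47 (SE 0.12, adjusted p = 0.0266), and its call was lost in 6 of 22 alternatives, without KO Topo 1, KO DMSO 2, KO DMSO 3, WT Topo 1 or WT DMSO 1 (-0.47 to -0.38) and without both DMSO 1 arrays. Resp18 rose by 0.46 ± 0.13 (SE, adjusted p = 0.0479), and its call was lost in 11 of 22 alternatives, 9 of which left out 1 array (0.35 to 0.47), with adjusted p from 0.0268 to 0.147 over all 22. With 6-week arrays alone, the Resp18 change was 0.35 ± 0.09 (adjusted p = 0.0446). Etopo averaged over genotypes gave 0 calls, among the members and over all genes (0%), with 2 members at an unadjusted p under 0.05.

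With EtopoTopo, Apoc3 had the largest rise of the 8 genes. It was 12.25 and 12.11 in KO EtopoTopo, against 10.17, 11.68 and 10.92 in KO DMSO. It was 12.05, 12.57 and 12.14 in WT EtopoTopo, against 11.53, 11.29 and 11.33 in WT DMSO. In both genotypes all drug arrays lay above all DMSO arrays. The rise was 1.26 ± 0.26 in KO (SE, adjusted p = 0.00526), 2.39-fold, where 22.8% of all genes were called, and 0.87 ± 0.23 in WT (adjusted p = 0.0177), 1.83-fold, where 10.9% were. With 1 array left out the KO rise ran from 0.88 to 1.64. The lowest KO DMSO value, 10.17, was on KO DMSO 1, which is rich in thymocyte transcripts. The WT call was lost without WT EtopoTopo 2 (0.71, adjusted p = 0.106) or WT DMSO 2 (0.82, adjusted p = 0.0591). A gap between EtopoTopo and DMSO arrays marks out no member in KO, where 4 of the 8 lay above and 4 below. In WT 1 lay above and 3 below. The share of all genes with such a gap is not given here.

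Calb1 went the other way. It was 7.34 and 7.11 in KO EtopoTopo, against 7.83, 8.19 and 8.05 in KO DMSO, a change of -0.80 ± 0.19 (SE, adjusted p = 0.0118). It was 7.71, 7.98 and 7.90 in WT EtopoTopo, against 8.91, 8.29 and 8.38 in WT DMSO, a change of -0.66 ± 0.17 (adjusted p = 0.0172). The drug arrays lay below all DMSO arrays in both genotypes. Without both DMSO 1 arrays the WT change was -0.47 (adjusted p = 0.113) and the KO change -0.89 (adjusted p = 0.0102), and the WT call was also lost without WT EtopoTopo 1 (-0.59, adjusted p = 0.0629).

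The other calls with EtopoTopo were in KO. Fabp9 was 12.09 and 12.08 in KO EtopoTopo, against 10.97, 11.92 and 11.14 in KO DMSO, a rise of 0.74 ± 0.22 (SE, adjusted p = 0.0269). In WT it was 11.75, 12.13 and 12.10 with EtopoTopo, against 12.07, 11.81 and 11.86 with DMSO, which overlapped (0.08 ± 0.20, adjusted p = 0.837). Without both DMSO 1 arrays the KO change was 0.55 (adjusted p = 0.0938), and without KO DMSO 3 it was 0.64 (adjusted p = 0.0841). The difference between genotypes in this drug effect was 0.66 ± 0.30 with an adjusted p of 0.313, so Fabp9 was not shown to respond differently in KO and WT.

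Apob rose in KO EtopoTopo, with 8.96 and 8.73 against 8.17, 8.29 and 8.18 in KO DMSO (0.63 ± 0.21, SE, adjusted p = 0.0409), a call lost when any 1 of the KO DMSO arrays was left out (0.61 to 0.67, adjusted p = 0.0603 to 0.088). In WT EtopoTopo it was 8.60, 8.72 and 8.78, against 9.35, 9.14 and 9.00 in WT DMSO (-0.46 ± 0.19, adjusted p = 0.123). The arrays did not overlap in either genotype and lay in opposite directions. The difference between the effects, KO minus WT, was 1.09 ± 0.29 (adjusted p = 0.0438), where 2.46% of all genes were called. Its call was lost in 13 of 22 alternatives, and without WT EtopoTopo 1 and 2 the difference was 1.01. None of the other 7 genes was called for this difference, nor any of the 8 for Etopo (0% of all genes) or Topo (0.0759%), where Apob had 0.64 ± 0.29 (adjusted p = 0.95) and 0.66 ± 0.27 (adjusted p = 0.819). Without KO Topo 1 the Topo difference was 0.99 (adjusted p = 0.0464) and Apob was called in KO Topo against KO DMSO, at 0.71 (adjusted p = 0.0354).

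These calls rest on arrays of different age. No KO group holds both ages, so an age term comes only from WT DMSO 3 and WT Etopo 3 and is assumed equal in KO. The KO values with age in the model therefore cannot decide whether age or the drugs set the KO changes. With age as a covariate, none of the members called for EtopoTopo against DMSO in KO or in WT passed. The Apoc3 changes were then 1.19 in KO (adjusted p = 0.162) and 0.82 in WT (adjusted p = 0.163), and the Calb1 changes -0.47 (adjusted p = 0.288) and -0.45 (adjusted p = 0.322). In KO, Fabp9 then had 0.87 (adjusted p = 0.187) and Apob 0.78 (adjusted p = 0.204). Among 4-week WT arrays alone, with WT DMSO 3 the lone control and its spread taken from the other arrays, Apoc3 differed by 0.92 ± 0.26 (SE, adjusted p = 0.411) and Calb1 by -0.52 ± 0.23 (adjusted p = 0.857). Without WT EtopoTopo 1 and 2, again with 1 WT EtopoTopo array left, the WT changes were 0.76 for Apoc3 (adjusted p = 0.27) and -0.62 for Calb1 (adjusted p = 0.238). Without KO EtopoTopo 1 1 KO EtopoTopo array is left, its spread taken from the other arrays, and none of the 4 KO calls passed. Apoc3 then had 1.18 (adjusted p = 0.105), Calb1 -0.92 (adjusted p = 0.0898), Fabp9 0.73 (adjusted p = 0.271) and Apob 0.51 (adjusted p = 0.442).

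Averaged over genotypes, EtopoTopo was followed by 4 calls among the 8 genes, where 32% of all genes were called. Apoc3 rose by 1.06 ± 0.17 (SE, adjusted p = 0.000257) and Calb1 fell by 0.73 (SE 0.13, adjusted p = 0.000536), and each lost its call in 1 of 21 alternatives, the age covariate (1.01, adjusted p = 0.0908, and -0.46, adjusted p = 0.239). Fabp9 rose by 0.41 ± 0.15 (adjusted p = 0.0418), a call lost in 12 of 21 alternatives, including leaving out any 1 of 8 arrays (0.32 to 0.41). Fezf2 was the fourth, as given above. The drugs were set against each other in WT alone, and these comparisons were not made in KO. In WT no member was called for Topo against Etopo (0.00506% of all genes), EtopoTopo against Topo (0.38%) or EtopoTopo against Etopo (3.71%), with 1, 1 and 2 members at an unadjusted p under 0.05.

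Fabp9 was 11.86 and 11.61 in KO Etopo and 11.74, 12.08 and 11.90 in KO Topo. It was 12.22, 12.07 and 11.95 in WT Etopo and 12.09, 12.52 and 11.78 in WT Topo. Against DMSO the changes were 0.39 ± 0.22 (SE, adjusted p = 0.999) and 0.56 ± 0.20 (adjusted p = 0.236) in KO, and 0.16 ± 0.20 (adjusted p = 0.999) and 0.22 ± 0.20 (adjusted p = 0.852) in WT. All 4 pairs of groups overlapped.

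Ttr overlapped between drug and DMSO arrays in WT and passed the threshold in no single comparison. It was 10.54 and 10.01 in KO Etopo, 9.70, 10.68 and 10.81 in KO Topo, 10.16 and 10.35 in KO EtopoTopo, and 9.52, 10.01 and 9.94 in KO DMSO. In WT it was 10.65, 10.59 and 10.43 with Etopo, 10.71, 10.60 and 10.59 with Topo, 10.50, 10.91 and 10.44 with EtopoTopo, and 10.65, 10.12 and 9.82 with DMSO. The 6 drug changes, 3 in each genotype, ran from 0.36 to 0.57, and the lowest adjusted p was 0.217.

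Resp18 followed the age on the labels. Over the 15 arrays of 6-week mice it ran from 10.64 to 11.29 with a median of 11.02, and over the 7 arrays of 4-week mice from 10.04 to 10.59 with a median of 10.41. The ages did not overlap, and the share of all genes for which this held is not given here. Within WT Etopo, the 6-week arrays had 11.12 and 10.92 and the 4-week array 10.25. Within WT DMSO, the 6-week arrays had 10.75 and 10.64 and the 4-week array 10.04.

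**Figure D4:**
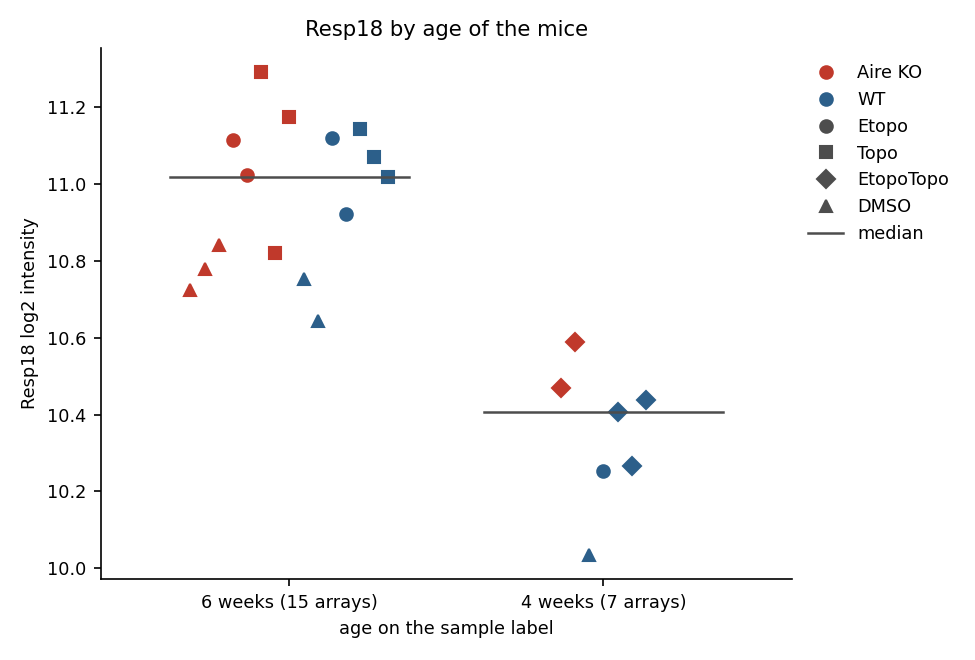
Log2 intensity of Resp18 (vertical axis) on 15 arrays of 6-week mice and 7 arrays of 4-week mice, coloured by genotype, with the shape giving the treatment and the line the median. The 4-week arrays reach at most 10.59 and the 6-week arrays are at least 10.64.

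In a model with group and age, Resp18 was higher at 6 weeks than at 4 weeks by 0.71 ± 0.12 (SE, adjusted p = 0.0392), where 10 genes, 0.0506% of all, were called. No other member was called, the next largest differences being 0.38 ± 0.24 for Ttr and 0.32 ± 0.17 for Calb1. The estimate comes from the 2 WT groups that hold both ages, so it rests on WT DMSO 3 and WT Etopo 3. Without WT DMSO 3 it was 0.77 ± 0.18, and without WT Etopo 3 it was 0.66 ± 0.18, each with an adjusted p of 1 and 0 genes called. These fits were added after the data were seen. Deviations of WT DMSO 3 and WT Etopo 3 from their groups correlated at 0.592, so another trait that the 2 arrays share cannot be told apart from age.

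The drug values of Resp18 ran along with the age on the labels. It was 10.47 and 10.59 in KO EtopoTopo and 10.41, 10.27 and 10.44 in WT EtopoTopo. KO Etopo arrays, from 6-week mice, had 11.11 and 11.02. Topo arrays, all from 6-week mice, had 11.29, 10.82 and 11.17 in KO and 11.14, 11.07 and 11.02 in WT. WT EtopoTopo against WT Topo was -0.71 ± 0.19 (SE, adjusted p = 0.0807) without age in the model and 0.01 with it.

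Nol4 gave no call with any of its 3 probes in any comparison of 2 groups. Its brightest probe ran from 8.64 to 9.37 over the 22 arrays, and the group means spanned 0.42. It was 8.92 and 9.05 in KO Etopo and 8.68, 8.94 and 8.98 in KO Topo, against 9.07, 8.98 and 8.87 in WT Etopo and 9.11, 8.88 and 9.31 in WT Topo. The largest change of that probe was KO against WT with EtopoTopo, where KO had 8.72 and 8.64 and WT 9.37, 8.80 and 8.98 (-0.37 ± 0.16, SE, adjusted p = 0.153). The other probes gave -0.36 ± 0.14 (adjusted p = 0.111) and -0.07 ± 0.19 (adjusted p = 0.868). In the average over treatments 1 of the 3 was called, at -0.24 ± 0.07 (adjusted p = 0.00626), while the brightest had -0.15 ± 0.08 (adjusted p = 0.123). Over the 22 arrays the probes correlated with each other at 0.39, -0.11 and 0.41, so they disagree on this gene.

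The members did not move as 1 group. Over the 8 group means, which share arrays, scaling and ages and are given without a test, Fabp9 correlated with Apoc3 at 0.87, with Ttr at 0.85 and with Apob at 0.78. Apoc3 and Ttr correlated at 0.82. Fezf2 correlated with Apoc3 at -0.78 and with Calb1 at 0.69, and with Apob at 0.03. Over the 22 arrays the same pairs with Fezf2 had -0.52, 0.57 and 0.23.

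Among genes whose group means spanned at least 1 log2 unit, the 5 with the group means most like those of Fezf2 were Spock2, Klrg1, Slc18a1, Pnmal2 and Fam163a, with correlations of 0.93 to 0.99 over the 8 groups and 0.80 to 0.91 over the 22 arrays. Fezf2 itself spanned 0.32, so these genes resemble its pattern and not its size of change. They were picked as the highest of 2218 candidates, so high correlations follow in part from the choice. The 3 genes most like Calb1 were Lxn, Gbp5 and Nt5dc2 (0.96 to 0.97), those most like Apob were Slc45a2, Itga7 and Cyp4a14, each at 0.96, and those most like Apoc3 were Olfr101, Olfr461 and Kcnj13 (0.94 to 0.96).

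Upstream of Fezf2, as has been proposed, the lymphotoxin receptor and other receptors of the tumour necrosis factor family signal through the alternative NF-kB route, in which the kinase Map3k14 leads to Relb and Nfkb2. The list of 10 measured genes held such receptors, their ligands and NF-kB signalling genes, not the alternative route alone. Of the 10, 1 was higher and 0 were lower in KO DMSO than in WT DMSO, where 19.4% of all genes were called. The called gene was the adaptor Traf6 (0.53 ± 0.16, SE, adjusted p = 0.0225). With EtopoTopo 0 rose and 4 fell in KO, where 22.8% of all genes were called, and 0 rose and 2 fell in WT, where 10.9% were. Cd40, a receptor of the family, fell by 0.74 in KO (SE 0.14, adjusted p = 0.00296) and by 0.84 in WT (SE 0.12, adjusted p = 0.000151). In KO, Relb fell by 0.84 (SE 0.24, adjusted p = 0.0218) and Nfkb2 fell by 0.79 (SE 0.21, adjusted p = 0.0156). The list's median change with EtopoTopo was -0.28 in KO and -0.21 in WT, against 0.06 and -0.01 over all genes, on the same arrays of unequal age. The list mean was 9.06 and 9.42 on the 2 KO EtopoTopo arrays, against 9.52 to 9.60 on the KO DMSO arrays. For this list and those below, values without KO EtopoTopo 1, the array of narrowest spread, are not given.

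Fezf2 has been described with the chromatin remodeller Chd4 of the NuRD complex in MECs and with Groucho co-repressors in the developing brain. Of 16 measured genes of these complexes, 2 were higher and 1 was lower in KO DMSO than in WT DMSO, near the 19.4% of all genes called: Mta3 (0.46 ± 0.13, SE, adjusted p = 0.0176) and Tle1 (0.41 ± 0.12, adjusted p = 0.0183) rose, and the deacetylase Hdac1 fell by 0.63 (SE 0.18, adjusted p = 0.0157). With EtopoTopo 0 rose and 6 fell in KO (22.8% of all genes called), among them Hdac2, which fell by 1.43 (SE 0.17, adjusted p = 0.000344). In WT 0 rose and 1 fell (10.9% of all genes called), Hdac2, which fell by 0.92 (SE 0.15, adjusted p = 0.000536). The medians were -0.36 in KO and -0.03 in WT. The list mean was 9.55 and 9.83 on the 2 KO EtopoTopo arrays, against 9.99 to 10.04 on the KO DMSO arrays. Whether these falls hold without KO EtopoTopo 1 or at equal age was not tested. Of 6 genes known from Fezf2's work in cortical neurons, 0 were called between genotypes under DMSO, and 1 rose with EtopoTopo in KO, the paralog Fezf1 (0.52 ± 0.14, SE, adjusted p = 0.0156).

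Relatives of the targets were described in the same way. Of 12 other apolipoproteins and assembly genes 0 were higher and 5 lower in KO DMSO (median -0.40, against -0.01 over all genes), where 12% of all genes were lower and 19.4% were called. Apoa1, the main protein of high-density lipoproteins, fell by 1.83 (SE 0.29, adjusted p = 7.86e-05), Apoa4 fell by 0.82 (SE 0.23, adjusted p = 0.0124) and Apoa2 fell by 0.74 (SE 0.13, adjusted p = 0.000255). Apoa1 and Apoa4 lie on either side of Apoc3 in the RefSeq gene order, and Apoc3 was not called there. Calb2, calretinin, a paralog of Calb1, fell by 4.03 (SE 0.23, adjusted p = 2.97e-11), and Rbp4, the retinol carrier that binds Ttr, fell by 1.57 (SE 0.15, adjusted p = 9.81e-08). Of 3 other calcium binding proteins 1 was higher and 1 lower in KO DMSO, of 4 genes for the partner of Ttr and for hormone carriers 0 were higher and 2 lower, and of 3 relatives of Resp18 and Nol4 none was called. Of 9 other fatty acid binding proteins 2 were higher and 3 lower, among them Fabp2 (-1.74 ± 0.24, SE, adjusted p = 1.35e-05).

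Markers of the MEC subtypes in which tissue genes cluster were set beside these values. The mean of 10 enterohepatic-like markers was 8.17 to 8.45 in KO DMSO, against 8.96 to 9.33 in WT DMSO, and 5 of the 10 were lower and 0 higher in KO, where 12% of all genes were lower and 19.4% were called, with Alb at -2.96 ± 0.20 (SE, adjusted p = 3.19e-10). Apoa1, Apoa4, Alb and Fabp2 are among the genes that stand both on that list and among the relatives above, so these counts share genes. Of 9 neuroendocrine-like markers 4 were lower in KO DMSO, as were 4 of 8 cornified, 3 of 9 cortical epithelial and 1 of 5 immature MEC markers, while 1 immature MEC marker and 0 of the other 3 lists were higher. Of 8 macrophage and dendritic, 8 stromal and endothelial, 3 B cell and 6 pan-epithelial markers, 2, 2, 1 and 0 were lower and 1, 1, 0 and 1 higher, while none of the 12 thymocyte markers was called. None of 11 tuft-like markers was called there, while 4 of 11 rose in KO EtopoTopo (median 0.46), where 22.8% of all genes were called, and 10 of 11 in WT EtopoTopo (median 1.23), where 10.9% were, for example Sh2d6 at 1.66 ± 0.21 in WT (SE, adjusted p = 5.56e-05). Their mean was 9.64 to 10.27 in KO EtopoTopo against 9.28 to 9.62 in KO DMSO, and 10.48 to 10.63 in WT EtopoTopo against 9.34 to 9.59 in WT DMSO. The part of these cell types in the values of Apob, Calb1 and Apoc3 was not tested.

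Of the 32 measured protein-coding genes that flank the 8 members, 4 around each, 5 were higher and 6 lower in KO DMSO than in WT DMSO, against 19.4% of all genes called. Fabp4, Fabp12, Apoa1 and Apoa4 are among the called genes that also stand among the relatives above, so these counts share genes. Both measured genes on one side of Calb1, Necab1 and Tmem64, named after their values were seen, were lower in KO DMSO, at -1.82 (adjusted p = 6.52e-06) and -0.86 (adjusted p = 0.000811). None of the 4 genes around Apob was called in that comparison. With EtopoTopo 1 rose and 5 fell in KO, against 22.8% of all genes called, and 1 rose and 1 fell in WT, against 10.9%. Those counts rest on the same arrays of unequal age, and values without KO EtopoTopo 1 are not given.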

How the data were processed

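RNA of sorted MECs (no DAPI or CD45 staining, low Ly51, high MHCII) was measured on 22 Affymetrix ST1.0 arrays. The deposited values are linear intensities per probe, made by the authors with RMA in Affymetrix Power Tools, per the submitters' processing notes. The planned design expected log2 values, so log2 was taken first and nothing was normalized again. Of 24922 probes, 21425 had 1 gene symbol in the platform annotation, 1399 several and 2098 none, and 21347 Entrez identifiers matched RefSeq without a change of symbol. The brightest probe stood for each of 19752 genes.

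A limma model (version 3.58.1, R 4.3.3) with 1 mean per group over all arrays was fitted across all genes, with 14 residual degrees of freedom and Benjamini-Hochberg adjustment per comparison at 0.05. The model was tested on simulated data. There were 16 comparisons, and 4 averages were added after the data were seen. The members and lists were chosen with earlier results of these data known. Besides the members, up to 3 called genes per list and comparison with the largest change were named, and the 3 genes (5 for Fezf2) most like a member over group means, among 2218 that spanned 1 log2 unit. The number of arrays limits the precision: groups hold 2 or 3. Median intensities were 236.1 to 263.6, and replicates correlated at 0.963 to 0.997.

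Replicate numbers come from the sample titles. Deviations of same-numbered arrays all correlated above 0.1 only for WT Etopo and WT DMSO (0.335 to 0.592) and for KO Topo and KO DMSO (0.167 to 0.412), and the replicate block left both at 0 called members. The alternatives were leaving out each array, quantile normalization, median centring, fitting only the groups compared, a replicate block, age as a covariate, 1 age alone, and leaving out arrays that stood apart.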

Additional observations from a re-analysis of the deposited data

Results flagged for a closer look

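Apob is the only one of the 8 genes for which the effect of EtopoTopo against DMSO differed between genotypes by a test of the difference itself (KO minus WT, 1.09 ± 0.29, SE, adjusted p = 0.0438 by limma). It was higher with the drugs on both KO EtopoTopo arrays than on any KO DMSO array, and lower with the drugs on all 3 WT EtopoTopo arrays than on any WT DMSO array. In KO each of the 8 members had such a gap, 4 above and 4 below DMSO. The share of all genes with such a gap is not given here, so it is no result about Apob. The call held in 9 of 22 alternatives, with differences of 0.98 to 1.21 and adjusted p from 0.015 to 0.378. With age as a covariate it was 1.14 (adjusted p = 0.0416), and without KO EtopoTopo 1 it was 0.98 (adjusted p = 0.327). It was also lost when any 1 of the 3 KO DMSO arrays, the 3 WT EtopoTopo arrays, WT DMSO 1 or WT DMSO 2 was left out (1.00 to 1.13). Age and drug cannot be told apart within KO, where the drug arrays were all 4-week and the DMSO arrays all 6-week.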

How the results depend on the processing

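The counts of called members among the 8 moved with several choices. With age as a covariate, EtopoTopo against DMSO had 0 in WT (2 otherwise), 0 in KO (4) and 0 averaged over genotypes (4), and with 4-week arrays alone 0 in WT. With 6-week arrays alone, KO DMSO against WT DMSO had 1 (2). Median centring gave 1 there and 0 for the EtopoTopo difference between genotypes (1). Fitting only the groups compared gave 1 for KO against WT with DMSO, 2 with Etopo (1) and 0 with EtopoTopo (1), 0 for EtopoTopo in KO, and 1 each (0) for WT Topo against DMSO and for WT EtopoTopo against Topo and against Etopo. Quantile normalization gave 1 (0) for WT EtopoTopo against Etopo, 5 (2) for KO against WT averaged and 5 (3) for Topo averaged. The replicate block gave 0 for KO against WT with EtopoTopo and 0 for the EtopoTopo difference between genotypes, and changed the count of no other comparison by over 1.5 times. Only 13 of 35 same-numbered pairs correlated above 0.1 (-0.558 to 0.592). Without WT EtopoTopo 1 and 2 the counts were 0 for KO against WT with EtopoTopo, 0 for EtopoTopo in WT, 0 for its difference between genotypes and 2 (4) averaged. Without both DMSO 1 arrays they were 1 for KO DMSO against WT DMSO, 1 for EtopoTopo in WT, 2 in KO, 0 for the difference and 1 (3) for Topo averaged. The share of all genes called under each setting is not given beside these counts or those that follow. They therefore describe the settings and are not a result about the members. The causes were not tested.

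Leaving out 1 array at a time gave 1 to 4 for KO DMSO against WT DMSO, 0 to 1 each for KO against WT with Etopo and with EtopoTopo, 0 to 0 with Topo and 2 to 4 averaged. It gave 1 to 2 for EtopoTopo in WT, 0 to 4 in KO and 2 to 5 averaged, 0 to 2 for Topo in KO, 0 to 0 in WT and 1 to 3 averaged, and 0 to 0 for Etopo in WT, in KO and averaged. The difference between genotypes had 0 to 0 with Etopo, 0 to 1 with Topo and 0 to 1 with EtopoTopo, and among WT drugs EtopoTopo against Etopo had 0 to 2 and the other pairs 0 to 0.

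Among 3000 values of single genes 156 changed sign. Of these, 3 belonged to changes with an unadjusted p below 0.05, all of Resp18, and the others to changes of at most 0.39 with an unadjusted p of at least 0.05, not called under either setting. With age as a covariate, WT EtopoTopo against Topo was 0.0072 (-0.71 otherwise) and against Etopo 0.081 (-0.39), and with 4-week arrays alone EtopoTopo against Etopo was 0.12.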
